A study of Oryctolagus cuniculus with 6 samples.

Results

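The 912 regions described here lie on scaffolds that the rabbit assembly OryCun2.0 places on no chromosome, and each holds an ATAC-seq peak in all 6 corneas of the study. They were found by pooling the 6 deposited peak lists, merging peaks that shared at least 1 bp into 26220 regions, and keeping those on a scaffold whose name starts with GL or AAGW with a peak in every list. Of the 26220 regions, 9580 lay on such scaffolds, so the 912 made up 9.52% of them (95% Wilson interval 8.95 to 10.1%). The regions were thus chosen by the presence of a peak in each list, and that presence is a description and not a result.

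The study measured open chromatin in corneas of female rabbits at day 14, with 3 naive corneas, which received no treatment, and 3 corneas burned with alkali. For the burn, a disc of 8 mm soaked in sodium hydroxide was laid on the cornea for 30 s, and the labels give the strength as 0.5 N in one place and 1 N in another. The opposite eye was left uninjured and served as the naive control, but the labels do not say which naive and burned libraries came from 1 animal. Whole cornea was used, so epithelium, stroma and any other cells of the tissue were measured together. No annotation of the build was used, so the tissue could not be checked against its marker genes. The labels name each library as a separate sample without naming its animal, so p-values between groups measure the spread between these samples.

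In ATAC-seq a transposase inserts sequencing adaptors into DNA that is not covered by nucleosomes or other proteins, and a peak is a stretch where inserted tags exceed the number expected around it. An unplaced scaffold is assembled sequence whose position in the chromosomes is not known. Such sequence is often rich in repeats and duplicated segments, which are hard to assemble. In this assembly, names that start with GL belong to scaffolds, and names that start with AAGW to single contigs that were joined to no scaffold.

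The full lists held 8808, 21184 and 8416 peaks in naive libraries 1 to 3 and 2408, 2319 and 4406 in burned libraries 1 to 3. The depth was read from the lists as the genome background, the number of tags expected at any position by chance, which was 1.79 to 2.77 tags in the naive and 1.83 to 2.11 tags in the burned libraries. The rule gives each list at least 912 peaks inside the 912 regions, and the number counted there was near that floor in every list: 1012, 1032 and 1047 in the naive and 1036, 1034 and 1029 in the burned libraries. As a share of a list's unplaced peaks these were 21.5%, 16.8% and 30.9% in naive libraries 1 to 3, and 51.2%, 51.6% and 31.3% in burned libraries 1 to 3. The highest naive share, 30.9%, lay just below the lowest burned one, 31.3%, and their Wilson intervals overlapped (29.3 to 32.4% and 29.7 to 32.9%). These shares move with the length of the lists.

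AAGW contigs held a larger share of the regions found in every library than of unplaced regions as a whole. AAGW names made up 379 of the 912 regions (41.6%) but 2058 of all 9580 unplaced regions (21.5%). Put the other way, 18.4% of AAGW regions had a peak in every library (Wilson interval 16.8 to 20.1%), against 7.09% of the 7522 GL regions (6.53 to 7.69%) and 0.835% of the 16640 chromosomal regions (0.708 to 0.985%). The intervals cover counting error only. Unplaced peaks were 2023 of the 2408 peaks in burned library 1 and 2005 of the 2319 in burned library 2. In naive library 2 they were 6126 of 21184. The short burned lists thus held few chromosomal peaks, which caps the share of chromosomal regions that could have a peak in every library. On chromosomes the count fell from 369 regions in 4 libraries to 49 in 5 and stood at 139 in 6. On AAGW contigs it was 129 in 4 libraries, 119 in 5 and 379 in 6, so the last class was the largest of the 3. With every list limited to 2319 peaks the rule left 183 unplaced regions. On scaffolds reaching over 20000 bases it left 485, of which 10.5% were on AAGW contigs.

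**Figure D1:**
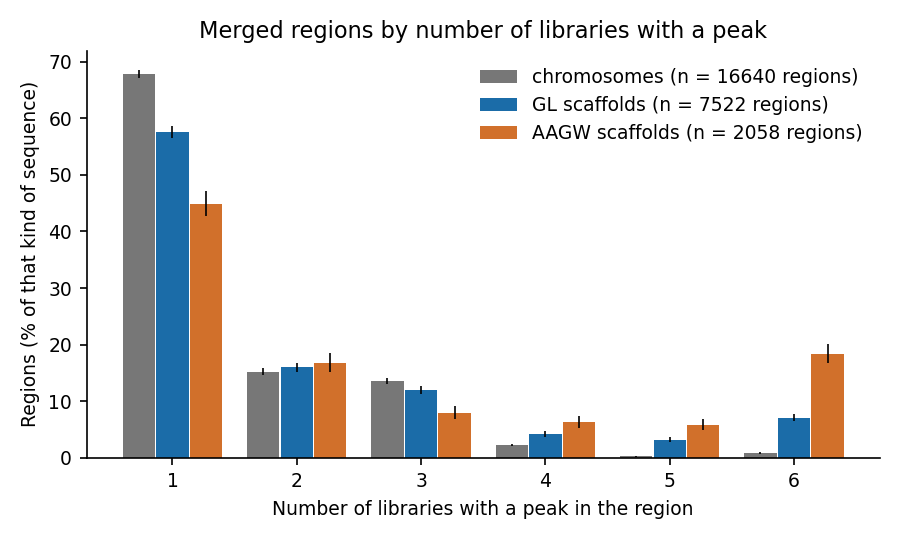
The share of merged regions (%, bars) by the number of libraries with a peak, for chromosomes, GL scaffolds and AAGW scaffolds, with 95% Wilson intervals. Regions with a peak in 6 libraries make up 0.835%, 7.09% and 18.4% of the 3 kinds of sequence. The chromosomal share is capped by the few chromosomal peaks in the short burned lists.

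The share also moved with how far a scaffold reached. Scaffold lengths are not in the lists, so the highest coordinate of any peak on a scaffold stood in for its length, as a lower bound. A peak called in a single list can extend this reach and also adds a region without a peak in every library. The relation of share and reach is thus partly built in. Among GL regions, 25.6% had a peak in every library on scaffolds that reached less than 10000 bases, and 3.65% did on those that reached 1 Mb or more, with 10.7% and 7.30% in the classes between. Among AAGW regions the shares were 19.9% below 10000 bases, 15.8% from 10000 to 100000 bases and 14.5% above that, the last over only 55 regions. The GL share was thus the higher one in the shortest class, and the AAGW share in the next 2.

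Just outside the rule stood 358 unplaced regions with a peak in 5 of the 6 lists. Of these, 224 lacked a peak in a burned library and 134 in a naive one. By library, the missing peak was in naive 1 at 11 regions, in naive 2 at 70, in naive 3 at 53, in burned 1 at 90, in burned 2 at 100 and in burned 3 at 34. Their mean fold had a median of 4.06, against 4.36 for the 912 regions, and no region with 5 peaks exceeded 10.1. Inside the rule, the weakest of a region's 6 peaks had a -log10 q-value of 2.02 at the least, and of at least 5 in 72.3% of the regions.

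The 912 regions lay on 495 scaffolds, out of 1960 unplaced scaffolds with any region. A single region was found on 286 of these scaffolds, 2 to 4 on 186, and 5 or more on 23. The 23 scaffolds held 171 of the 912 regions, and 18 of the 23 were GL scaffolds. On 78 scaffolds every region called in any library had a peak in all 6, and 57 of these were AAGW contigs. For 51 of the 78 that was the only region called.

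GL018762 carried the most, 17 regions of 139 called on it, spread between positions 107252 and 1018520. GL019111 followed with 16 of 40, GL018774 with 10 of 30, GL018790 with 10 of 58, and GL018724 with 8 of 57, tied in number with GL018796 and GL019135. On GL018762 the mean fold over 6 libraries ran from 2.65 at 112188 to 112782 to 4.48 at 1018012 to 1018520. On GL018790 it ran from 2.73 at 942616 to 943212 to 4.44 at 1009059 to 1009746. GL018774 was different, with mean folds between 4.23 at 346735 to 347262 and 12.9 at 1142409 to 1142884. The fold here is the authors' own value for each peak, the height of the summit over the local background, and the highest peak was taken where a list had several in a region.

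Neighbouring regions on a scaffold were often close. The median gap between neighbours was 4096 bp over 417 gaps, with 569 bp and 17685 bp as the lower and upper quartiles. On AAGW contigs the median gap was 739 bp and 55.6% of 153 gaps were under 1000 bp. On GL scaffolds it was 8759 bp and 17.8% of 264 gaps were under 1000 bp. A gap cannot exceed its scaffold, and the scaffolds holding these regions reached 6101.5 bases in the median for AAGW and 149788 for GL. The chromosomal regions found in every library were far apart in comparison, with a median gap of 4672140 bp and 5 of 117 gaps under 1000 bp. The closest neighbours were 15 bp apart on GL019341 (the second at 190483 to 190958), 25 bp on AAGW02083142 and 26 bp on AAGW02083432. The widest gap, 2075316 bp, was on GL018744.

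GL019111 showed how closely the regions can follow one another, since its 16 regions lay within 121728 bp. Between its first region at 47931 to 48259 and the seventh at 96363 to 96648, the local background rose from 1.49 ± 0.171 to 36.9 ± 6.66 times the genome background (mean ± SD, n = 6 libraries). The local background is the number of tags that the surroundings of a peak predict at its summit. From there to the end of the scaffold's regions it lay between 20.1 and 40.0 times the genome background. The mean fold was 6.81 ± 1.46 in the first region and 1.99 ± 0.115 in the seventh (SD, n = 6). The second region, at 66955 to 67647, had both a higher background than the first (3.71 ± 0.424) and the highest mean fold on the scaffold (7.48 ± 0.775).

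GL018724 held both kinds of region. Its first 4 regions, between 1077640 and 2725472, had local backgrounds of 1.58 to 1.79 times the genome background and mean folds of 4.42 to 6.89. Its last 4, between 3358953 and 3414483, had local backgrounds of 6.61 to 17.5 and mean folds of 2.58 to 3.41. The change fell in the same place in every library. On AAGW02082319, 7 of 9 called regions had a peak in all libraries, and they covered 30.7% of the contig up to its highest coordinate. There the local background ran from 13.2 at 853 to 1349 to 28.6 at 10573 to 11566, and naive library 1 had the lowest value of the 6 at each of the 7 regions.

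**Figure D2:**
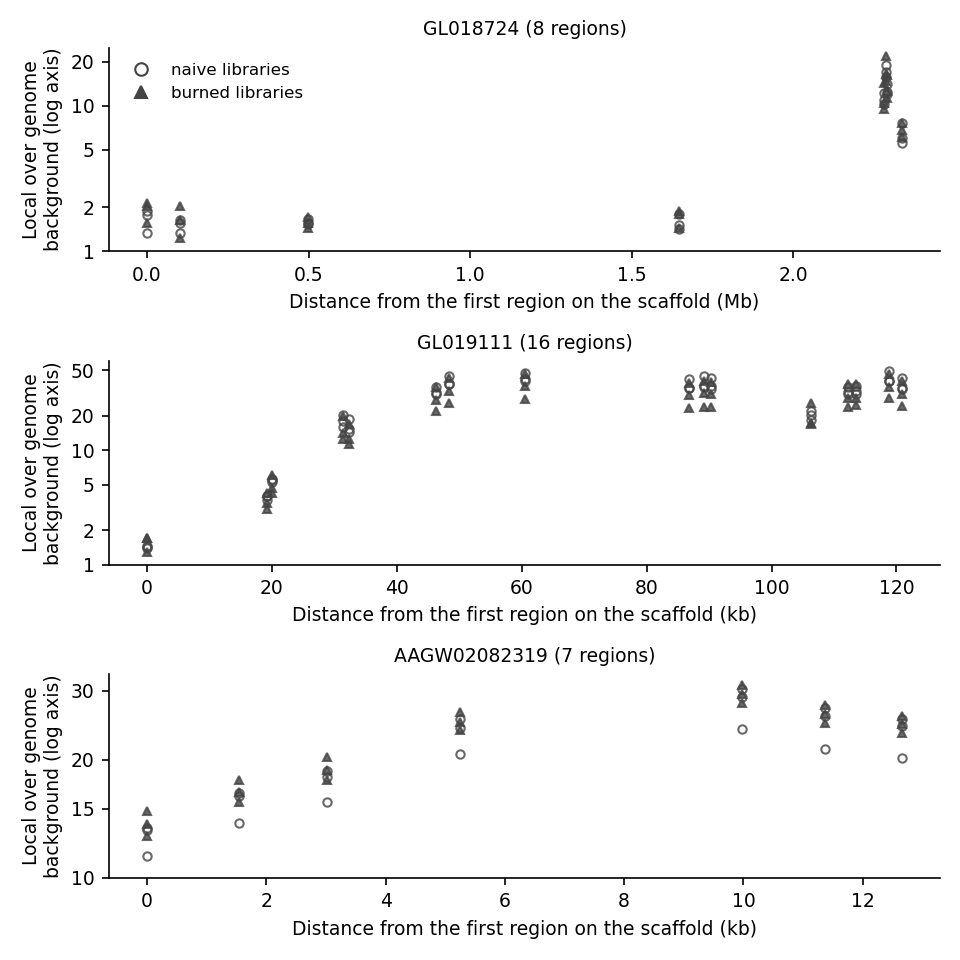
Local background over genome background (log axis) at each region of GL018724, GL019111 and AAGW02082319, against distance from the first region on the scaffold; open circles are naive and filled triangles burned libraries. On GL018724 the first 4 regions reach at most 2.13 and the last 4 at least 5.54 in any library, and on GL019111 the mean is 1.49 at the first region and 36.9 at the seventh.

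The fold was higher at regions that ended a scaffold's stretch with peaks or began at base 1. A region was counted as outermost when it started at base 1 or ended at the highest coordinate of any peak on its scaffold. This held for 225 of the 912 regions (24.7%). The first region of a scaffold was thus among the others if it began past base 1 and was not also the last. The only region called on a scaffold was outermost by definition, as on 51 scaffolds. The median fold of outermost regions was above that of the other 687 in all 6 libraries, by 0.31 ± 0.021 on the log2 scale or 1.24-fold (mean ± SD, exact two-sided sign-flip test over 6 libraries, p = 0.03125, the smallest possible). Their local background was lower, with a difference of -0.45 ± 0.021 on the same scale (6 of 6 libraries, exact sign-flip p = 0.03125). The 6 libraries measured the same regions, so this test covers the libraries and not the choice of regions. It also takes the 6 libraries as independent, although a naive and a burned cornea may come from 1 animal, and 3 animals would allow no p under 0.25. This holds for each sign-flip test given here. With every list limited to 2319 peaks the fold difference was 0.16 on the log2 scale. Of the 46 regions with a mean fold over 10, 22 (47.8%) were outermost, as were 7 of the 10 with the highest mean fold. The part of the lower background in the higher fold was not tested.

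The highest of all was AAGW02083802, whose region ran from base 1 to 282, the highest coordinate seen on that contig of unknown length. Its fold was 23.0, 27.1 and 25.3 in naive libraries 1 to 3 and 25.3, 26.1 and 24.7 in burned libraries 1 to 3, so the naive values enclosed the burned ones. The summits held 130, 130 and 135 tags in the naive libraries and 123, 132 and 145 in the burned ones.

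GL019013 at 255466 to 255788, the outermost region of its scaffold, came next. It had folds of 19.2, 19.6 and 21.2 in the naive and 18.7, 18.3 and 20.4 in the burned libraries, and its local background of 1.12 ± 0.108 was close to that of the genome (SD, n = 6). GL018953 held a pair of the highest 10, at 24307 to 24952 with a mean fold of 19.1 ± 0.826 and at 57728 to 58545 with 15.2 ± 1.27. Both of these lay inside their scaffold.

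The remaining 6 of the 10 had mean folds of 13.9 to 18.5. They were AAGW02083596 at 5714 to 6165, GL019328 at 76929 to 77491, AAGW02082226 at 15177 to 15662, AAGW02082509 at 12047 to 12450, AAGW02083311 at 1 to 385 and GL018703 at 6128016 to 6128588. All of these but the one on GL018703 were outermost on their scaffold.

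Regions that began at base 1 numbered 14, on 8 AAGW contigs and 6 GL scaffolds. They were 14 of the 26 unplaced regions in any library that began there. Their mean fold had a median of 9.46, against 4.12 in regions that were not outermost. On 7 of the 14 the region also reached the highest coordinate, as on AAGW02081496 (1 to 619, fold 12.5 ± 0.744), AAGW02081550 (1 to 342, 13.4 ± 2.54) and AAGW02082687 (1 to 423, 11.7 ± 0.986). Others opened long scaffolds, as on GL018812 (1 to 941, 9.29 ± 0.399), GL018957 (1 to 250, 9.64 ± 1.51) and GL019051 (1 to 402, 11.0 ± 1.30; SD, n = 6 for each). A start within the first 1000 bases was seen for 18.5% of the 912 regions and for 6.69% of all unplaced regions.

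The lowest folds belonged to tall peaks in surroundings with many tags. GL019111 at 108378 to 108851 had folds of 1.65, 1.90 and 1.84 in naive libraries 1 to 3 and 1.64, 1.74 and 1.77 in burned libraries 1 to 3. Its summits nevertheless held 191, 162 and 134 naive and 140, 103 and 125 burned tags, on a local background of 40.0 ± 7.13 times that of the genome.

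AAGW02081404 carried 2 regions with the highest local backgrounds of the 912, named here after their values were seen. At 24849 to 27633 the background was 63.6, 106 and 99.3 times that of the genome in the naive and 62.8, 40.3 and 77.5 times in the burned libraries, with 183 to 306 tags at the summit. At 168 to 2836 it was 51.9 to 87.3 in the naive and 42.3 to 69.9 in the burned libraries. The other regions of lowest mean fold were GL019656 at 29015 to 29657 (1.83), GL019111 at 136871 to 137587 (1.84) and AAGW02082060 at 15916 to 16294 (1.89).

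Across the 912 regions, fold and local background ran in opposite directions within every library (Spearman's rho -0.822 to -0.762), and summit height and local background in the same direction (0.777 to 0.840). Height is the number of summit tags over the genome background. Both relations are partly built in, since the local background divides the fold, and a region on a high background has a peak in every list only if its summits are tall. All points of a library also share its depth. In all 6 libraries the local background was under 1.5 times that of the genome at 65 regions (7.13%), against 57 of the 139 chromosomal regions found in every library (41.0%). It was at least 10 times that of the genome in all 6 at 135 regions (14.8%), on 55 scaffolds, against 4 chromosomal ones. Of the 135, 90 lay on AAGW contigs. The mean fold had a median of 7.32 in the 65 and of 2.58 in the 135.

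**Figure D3:**
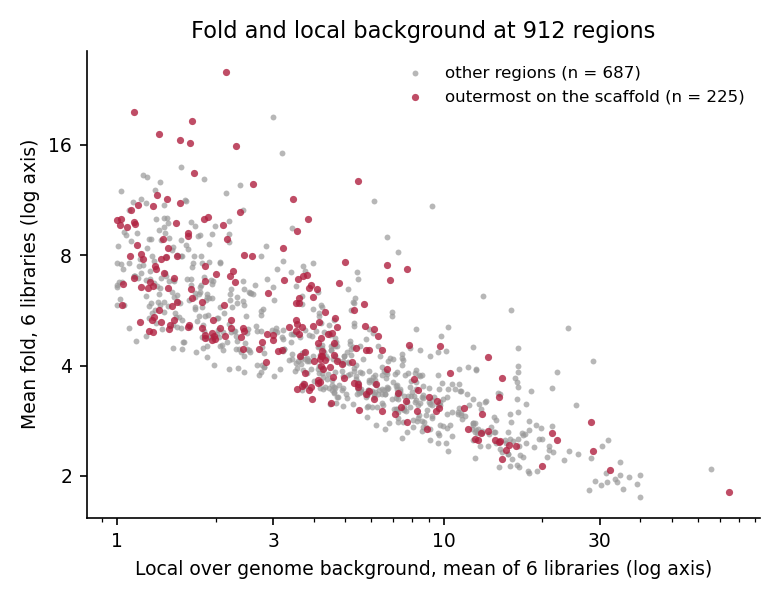
Mean fold against mean local background over genome background (both over 6 libraries, log axes) for the 912 regions, with outermost regions in red. Fold falls as the background rises, and 7 of the 10 highest folds are outermost regions.

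Set against the 139 chromosomal regions that passed the same rule, the unplaced regions were wider, taller and lower in fold, and stood on a higher background. The median local background was 4.35 ± 0.178 times that of the genome at unplaced and 1.39 ± 0.0522 times at chromosomal regions, a log2 difference of 1.65 ± 0.098 or 3.13-fold (mean ± SD over 6 libraries). The median fold was 1.59-fold lower, a log2 difference of -0.67 ± 0.055. The median peak was wider by 116 ± 22.6 bp (452 against 336 bp), and the summit height was greater by 0.64 ± 0.12 on the log2 scale, or 1.56-fold. Each difference had the same sign in 6 of 6 libraries (exact two-sided sign-flip test, p = 0.03125 for each and 0.03125 after Benjamini-Hochberg adjustment over 10 such contrasts, the smallest possible). The differences in fold and height are not separate from that in background. The background divides the fold, and a region on a high background passes the rule only if its summits are tall. On scaffolds reaching over 20000 bases the log2 differences were 1.02 for background and 0.41 for height. With every list limited to 2319 peaks the width difference was 218 bp.

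The same contrast was seen between AAGW and GL within the 912. The local background was 5.73 ± 0.25 times that of the genome at AAGW and 3.21 ± 0.113 times at GL regions, a log2 difference of 0.83 ± 0.025 or 1.78-fold. The fold was 1.24-fold lower at AAGW regions, a log2 difference of -0.31 ± 0.0098. Peaks were wider there by 79.7 ± 15 bp and taller by 0.40 ± 0.054 on the log2 scale (1.32-fold; SD, n = 6, 6 of 6 libraries and exact sign-flip p = 0.03125 for each of the 4). Here too, the differences in fold and height are partly built in through that in background. On scaffolds reaching over 20000 bases the log2 difference in fold was -0.51. The contrasts of AAGW with GL and of outermost with other regions were added after the data were seen.

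**Figure D4:**
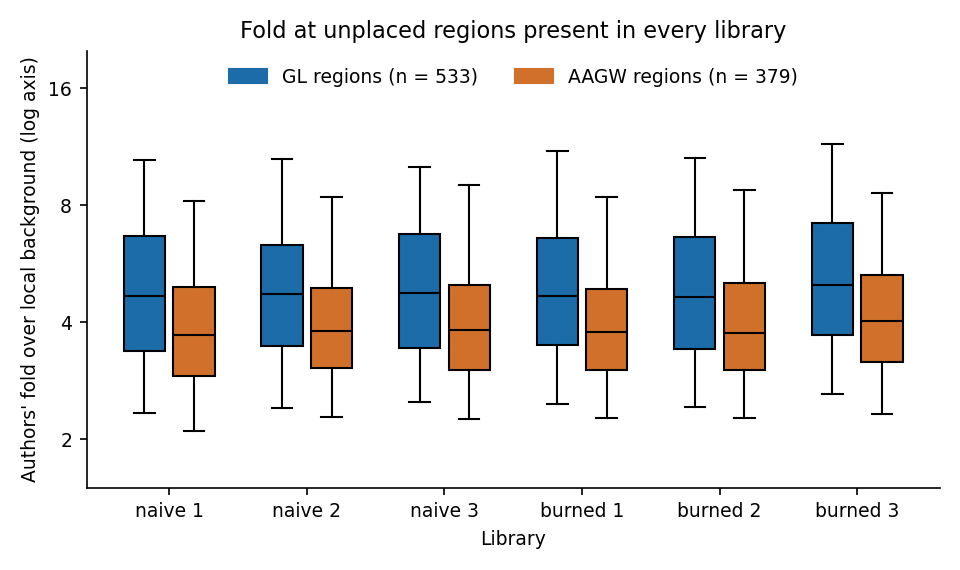
The authors' fold over local background (log axis) in each library at the 533 GL and 379 AAGW regions; boxes span the quartiles with the median, and whiskers the 5th to 95th percentile. The AAGW median is below the GL median in all 6 libraries, and the medians differ little between libraries.

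Merged regions were 248 to 3364 bp wide, with a median of 634 bp (590 bp on GL, 768 bp on AAGW), against 448 bp for chromosomal regions found in every library. A width over 1000 bp was found for 197 regions (21.6%), and the 912 regions covered 704 kb in all. Exactly 1 peak per library was found at 655 regions (71.8%), and in single libraries 90 to 121 regions held more than 1 peak. The widest was GL019548 at 38978 to 42341 (3364 bp, 7 peaks), followed by AAGW02083711 at 2033 to 5249 (3217 bp, 10 peaks) and AAGW02077833 at 139508 to 142381 (2874 bp, 16 peaks). The 2 regions of AAGW02081404 came next, with 2785 and 2669 bp. The summits of the highest peaks fell within 50 bp of each other in all 6 libraries at 163 regions (17.9%), and the median range was 162 bp. At chromosomal regions the median range was 97 bp and the share within 50 bp 26.6%.

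At these regions, chosen for a peak in every list, the fold was much the same in every cornea. Its median over the 912 regions was 4.19, 4.27 and 4.25 in naive libraries 1 to 3, and 4.31, 4.18 and 4.49 in burned libraries 1 to 3. Between libraries, Spearman's rho of the fold over the 912 regions was 0.917 to 0.930 for the 3 naive pairs, 0.917 to 0.929 for the 3 burned pairs and 0.897 to 0.944 for the 9 pairs of a naive with a burned library. Pairs across the groups thus covered the range of pairs within them. Naive library 1 with burned library 1 (0.944) and naive library 3 with burned library 2 (0.932) lay above every pair within a group. For the local background, rho was 0.947 to 0.995 over the 15 pairs, and the same pairs were the highest (0.995 and 0.990). The cause was not tested. These are descriptions over regions of shared sequence, which are not independent.

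The 139 chromosomal regions had lower values, 0.781 to 0.895 over the 15 pairs, and so did the 573 unplaced regions with a peak in every naive and no burned library, 0.540 to 0.634 over the 3 naive pairs. The median summit tags at the 573 were 23, 31 and 21 in naive libraries 1 to 3, against 54, 39 and 41 at the 912. Their fold quartiles lay closer together in each naive library, as in naive library 1 (3.73 and 4.78, against 3.16 and 5.93). The part of both in the lower rho was not tested. The coefficient of variation (CV) of the fold over 6 libraries, the SD as a percentage of the mean, had a median of 10.2% in the 912 regions, 8.79% on AAGW, 11.3% on GL and 12.8% at the chromosomal regions. It was under 20% at 852 of the 912 (93.4%). The median number of summit tags, averaged over 6 libraries, was 50.3 on AAGW, 38.2 on GL and 27.8 at the chromosomal regions. The part of the tag numbers in these CVs was not tested. Over the 3 naive libraries alone the median CV was 8.62% at the 912 and 23.2% at the 573 naive-only regions. The latter includes a shift between whole lists, since the median fold at the 573 was 4.25, 6.67 and 5.19 in naive libraries 1 to 3. Over the 3 burned libraries the median CV was 9.31% at the 912. The spread of log2 fold between regions was 0.63 (SD), against a median of 0.15 within a region over 6 libraries.

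The steadiest region was AAGW02083968 at 1181 to 2266. Its fold was 3.33, 3.25 and 3.29 in the naive and 3.28, 3.31 and 3.26 in the burned libraries, a CV of 0.873%. AAGW02082319 at 3933 to 4295 (CV 2.05%), AAGW02082431 at 9129 to 9900 (2.66%), GL018790 at 1017210 to 1017809 (2.84%) and AAGW02082060 at 15916 to 16294 (2.91%) followed.

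The most variable regions varied in different ways. At AAGW02082418, 13078 to 13565, naive library 2 alone stood apart, with a fold of 14.6 against 5.64 to 6.29 in the other 5 libraries. Its 118 tags were within the 97 to 122 tags of the others, and its local background was 3.98 times that of the genome, against 7.02 to 9.42 times. At GL018922, 404247 to 404900, the fold was 4.61, 8.06 and 13.1 in naive libraries 1 to 3 and 4.95, 7.88 and 14.3 in burned libraries 1 to 3. Libraries with the same number had like values there, and the groups overlapped.

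Similar pairs of values were seen at GL018956, 73120 to 73791 (5.09, 10.2 and 9.23 naive, 5.30, 10.04 and 11.4 burned). They were also seen in a pair of regions named for their fold, picked here after their values were seen. One was AAGW02082509 at 12047 to 12450, with 11.1, 16.4 and 20.1 naive and 12.2, 17.9 and 19.3 burned. The other was GL018774 at 1142409 to 1142884, with 8.95, 12.6 and 16.02 naive and 9.67, 14.8 and 15.3 burned. At GL018987, 287173 to 287817, libraries 1 were alike (10.6 and 11.8) and so were libraries 3 (5.83 and 4.91), whereas libraries 2 were not (9.56 and 4.94). The order of libraries 1 to 3 by fold was the same in both groups at 21 of the 60 regions with a CV of at least 20% (35%), and at 197 of all 912 (21.6%), where 3 libraries have 6 possible orders and unrelated orders would match in 1 of 6. The share of 1 in 6 takes no account of shifts of whole lists or of dependence between regions. Matches between libraries of unlike number were not counted, so these shares cannot show that like numbers are paired. The labels do not say what the numbers stand for.

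The question of the design is what differs between burned and naive cornea. At these regions the groups lay close together. The summit height over the genome background had a median of 19.5, 21.8 and 22.8 in naive libraries 1 to 3 and 21.9, 21.4 and 21.4 in burned libraries 1 to 3, and the naive values enclosed the burned ones. The group difference, burned minus naive, was 0.014 on the log2 scale (two-sided exact permutation test with 10 splits, p = 0.9, n = 3 per group).

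The local background had a median of 4.21, 4.40 and 4.53 times that of the genome in the naive and 4.49, 4.41 and 4.07 times in the burned libraries, a log2 difference of -0.020 (exact p = 0.7). Peaks at these regions had a median width of 519, 438 and 447 bp in the naive and 422, 423 and 461 bp in the burned libraries, a difference of -32.8 bp (exact p = 0.3). With every list limited to 2319 peaks, which left 183 regions, the difference in width was -35.3 bp and the groups did not overlap (exact p = 0.1). All 3 adjusted p-values were 0.9. This test cannot go below 0.1, so it could not have passed 0.05, and a p above that does not show that the groups were alike.

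Region by region, the mean fold of the burned libraries was within 1.25 times that of the naive libraries at 886 of the 912 regions (97.1%). Its ratio to the naive mean had a median of 1.03. The rule left out regions such as the 573 unplaced ones with a peak in every naive and no burned library. The likeness of the groups is thus partly set by the choice of regions. Since a list's folds are its own, regions were also ranked by fold within each list over the same 1051 regions found in every library, chromosomal ones included, rank 1 being the lowest. All 3 burned ranks lay above all 3 naive ranks at 42 of the 912 regions (4.61%), and the same held for 4.66% of all 1051. All 3 burned ranks lay below at 39 (4.28%), against 4.09% of all 1051. Both counts are at the background share and are no result about these regions. With every list limited to 2319 peaks, 13 of 183 regions (7.10%) ranked higher and 3 (1.64%) lower. Of all 215 regions found in every library in that setting, the 183 included, 6.51% and 1.86% did.

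**Figure D5:**
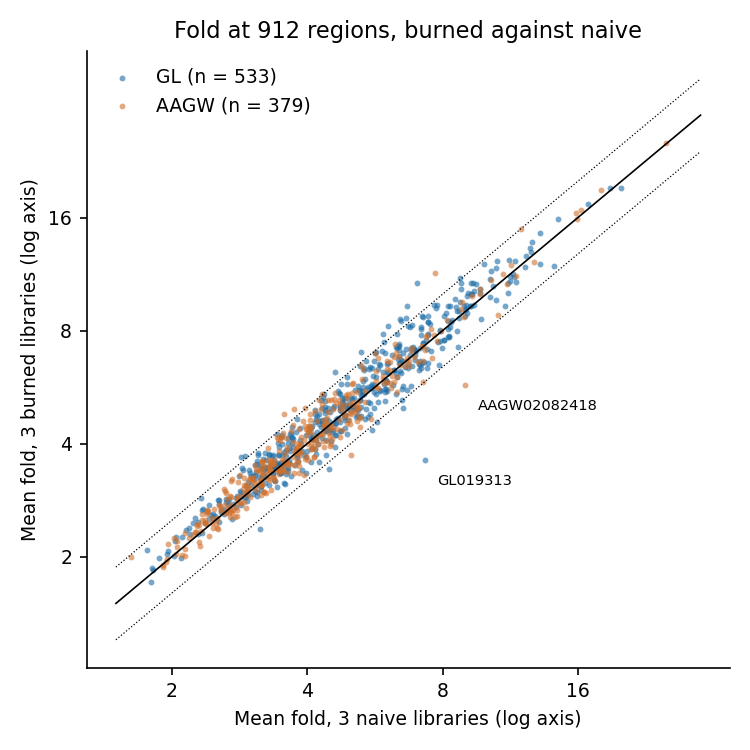
Mean fold of the 3 burned against the 3 naive libraries (log axes) at the 912 regions, GL in blue and AAGW in orange, with the line of equality and dotted lines at a ratio of 1.25 either way. 886 regions lie between the dotted lines, and GL019313 and AAGW02082418 lie farthest below.

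The farthest from equality was GL019313 at 19399 to 20799, with folds of 5.67, 9.26 and 6.96 in naive libraries 1 to 3 and 3.64, 3.15 and 4.09 in burned libraries 1 to 3. The groups did not overlap. The summits held 109, 142 and 112 tags in the naive and 37, 39 and 63 in the burned libraries. Its mean fold was 7.30 ± 1.82 in naive and 3.63 ± 0.471 in burned libraries (SD, n = 3), 2.01-fold lower in the burned ones, and its mean rank was 838 in naive and 313 in burned libraries. It was 1 of 39 regions in its class, no more than the background share, and was picked for its difference, so it has no test.

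Beside it, a ratio of 1.5 or more was found at AAGW02082418, where naive library 2 alone was high, and in the other direction at GL018824, 44090 to 44367. There the burned libraries had folds of 8.22, 10.8 and 13.1 and the naive ones 6.60, 5.88 and 8.59, so that the groups overlapped.

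Other regions with lower ranks in every burned library were AAGW02083050 at 178 to 783, GL019044 at 123515 to 124083, GL019343 at 67663 to 68776 and GL019063 at 111216 to 111707, which had mean naive ranks of 518 to 705 and mean burned ranks of 264 to 514. Among those with higher ranks, AAGW02082490 at 11406 to 11902 moved most, with folds of 3.45, 3.69 and 3.48 in the naive and 4.79, 4.60 and 4.97 in the burned libraries. Its tags were 35, 25 and 23 against 35, 37 and 37, so the tag numbers of the groups met at 35. GL019341 at 156538 to 156959, GL019422 at 21279 to 21636, GL018851 at 539906 to 540664 and GL018782 at 830788 to 831524 followed, with mean naive ranks of 144 to 640 and mean burned ranks of 328 to 818.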

How the data were processed

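ATAC-seq peak lists of 6 corneas (3 naive, 3 burned) were analysed. The submitters' processing notes name the build OryCun2.0 and the tools FastQC, Bowtie2 and SAMtools, without versions. For the peak caller and the handling of duplicate reads, details are not given in the sources used here. There is 1 peak list per library, and the authors deposited 10 columns in each, among them the fold ratio at the summit, the -log10 p-value and -log10 q-value, and an integer score. Summit tags (whole numbers) and local background were recovered per peak by reading the fold as a ratio of both, each raised by 1, and the p-value as an upper Poisson tail. With a tolerance of 0.001 on -log10 p, 100% of peaks could be solved. The lowest background of a list was taken as its genome background. This reading of the caller's model is inferred. The code was tested on simulated data.

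The 912 regions, the lists of named regions and the contrasts were chosen with earlier results of these data known. Named regions were the 10 highest and 5 lowest by mean fold, the 5 widest, the 5 most and least variable, those starting at base 1, the highest and lowest on the 5 scaffolds with most regions, the extremes of the rank difference, and the closest and most distant neighbours. Not every region the rule names is printed. Within-library contrasts used exact sign-flip tests and group contrasts exact permutation tests. No genome sequence of OryCun2.0 was used, and the gene table at hand is of another build, so genes, sequence and copy number were not analysed here. Alternatives were a stricter q limit, equal list lengths, coverage of a region, wider merging, the mean over peaks, long scaffolds only, and leaving out each library. Coordinates count from 1. The software was Python 3.11.15 with numpy 2.4.6, scipy 1.17.1, pandas 2.3.3 and, for plots, matplotlib 3.10.9.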

Additional observations from a re-analysis of the deposited data

How the results depend on the processing

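The 4 contrasts of unplaced with chromosomal regions, the 4 of AAGW with GL and the 2 of outermost with other regions kept their direction and exact p (0.03125) in all 6 settings that used every library. Their sizes moved more there than with 1 library left out. Between unplaced and chromosomal regions background ran from 1.02 to 1.69, fold from -0.70 to -0.51, height from 0.41 to 0.66 and width from 85 to 218 bp. Between AAGW and GL these were 0.70 to 1.13, -0.51 to -0.32, 0.34 to 0.47 and 64.5 to 102 bp, and between outermost and other regions fold ran from 0.16 to 0.38 and background from -0.60 to -0.30. With 1 library left out they kept their direction, and the exact p was 0.0625, the smallest that 5 libraries allow. On the log2 scale, local background then differed by 1.58 to 1.69, fold by -0.68 to -0.64 and height by 0.61 to 0.67 between unplaced and chromosomal regions, and width by 106 to 122 bp. Between AAGW and GL the ranges were 0.83 to 0.90, -0.32 to -0.28, 0.39 to 0.43 and 72 to 83.6 bp. Between outermost and other regions they were 0.28 to 0.36 for fold and -0.59 to -0.46 for background.

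The number of regions was 183 with every list limited to 2319 peaks, 485 on scaffolds reaching over 20000 bases, and 928 to 1014 with 1 library left out. Unplaced regions made up 77.7% of regions found in every library on those long scaffolds, against 86.8% in all and 86.6 to 87.2% with 1 library left out, and the AAGW share 10.5% (40.2 to 41.9%). The median gap was 11938 bp there and 1282 bp at equal list length (3694 to 4401 bp with 1 library left out). Regions with higher ranks in every burned library numbered 13 of 183 (7.10%) at equal list length, 25 of 624 (4.01%) with coverage of 50%, 27 of 485 (5.57%) on long scaffolds and 76 to 112 with 1 library left out, which loosens the criterion. Those with lower ranks numbered 3 (1.64%), 24 (3.85%), 19 (3.92%) and 85 to 107, and 22 of 659 (3.34%) at a -log10 q-value of at least 5. Over all regions found in every library in these settings, 6.51%, 4.24% and 5.29% ranked higher and 1.86%, 3.56%, 3.53% and 3.37% lower. At equal list length higher ranks also outnumbered lower ones among all 215 regions. However, 183 of the 215 are the unplaced regions themselves, so this is no independent background.

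Burned minus naive, the difference in height was -0.010 at a -log10 q-value of at least 5 and -0.022 with coverage of 50%, both reversed. It was 0.11 on long scaffolds (p = 0.2, exact permutation), and -0.032 to 0.059 with 1 library left out. That in background was 0.034 on long scaffolds, reversed, and -0.050 to 0.020 with 1 library left out. That in width stayed negative (-48.3 to -6.83 bp with 1 library left out, and -35.3 bp at equal list length, where the exact p of 0.1 is the smallest possible). The cause was not tested. In a replicate block by library number, the differences in height, background and width were 0.014, -0.020 and -32.8 bp, with exact sign-flip p of 1, 1 and 0.5 (smallest possible 0.25), and no call changed. Deviations of libraries 1, 2 and 3 from their group means correlated with those of their own number at 0.266, 0.063 and 0.213 for fold, 0.311, 0.168 and 0.322 for height and 0.333, 0.253 and 0.369 for background. Naive library 2 correlated with burned library 1 at 0.062, 0.151 and 0.257. Like numbers thus all correlated over 0.1 for height and background and not for fold. That limit does not set pairs apart, since naive library 2 was no closer to its own number in background. For fold, naive library 3 also correlated with burned library 2 at 0.130. The labels tie no number to an animal, so the unpaired tests are reported. The lists hold only peaks past the authors' limit, so a region without a peak is not shown to be closed.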
